A study of Mus musculus with 2 samples.

Results

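The circadian clock genes Dbp, Tef, Hlf, Per1, Per2, Per3, Cry1, Cry2, Nr1d1 and Nr1d2 were described by their open chromatin in mouse cardiac progenitor cells (CPCs). They are 10 of the 15351 gene symbols that carried at least 1 peak, and their peaks were 16 of 26232. The members were chosen by symbol: a peak belonged to a gene when the deposited peak list gave it that gene's symbol. Because the genes were picked with results of this peak list already known, the presence, number, distance and width of their peaks are given as a description, with no test.

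ATAC-seq uses a transposase, Tn5, to cut and tag accessible DNA, and it was applied to 2 replicates of 1 group. The cells were E14 Tg(Nkx2-5-EmGFP) embryonic stem cells, labelled as strain C57BL/6 and used at passages 16 to 20, and they carry a green fluorescent reporter for Nkx2-5, an early heart transcription factor. They were differentiated for 5 days with BMP4, activin A, VEGF and fibroblast growth factors, with no further treatment on the labels, and the methods describe independent differentiations of this line. The sources used here describe no sort on the reporter for these libraries, and the Isl1 knockdown cells that the series names are not analysed here.

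In the circadian clock, the CLOCK and BMAL1 proteins bind E-boxes (CACGTG) and activate the Per, Cry and Nr1d genes and Dbp, and the PER and CRY proteins then repress CLOCK and BMAL1. The Nr1d genes encode the REV-ERB nuclear receptors, which compete with the ROR receptors at ROR elements. Dbp, Tef and Hlf encode the PAR bZIP family of transcription factors, which activate genes through D-boxes, where the repressor NFIL3 also binds. Pluripotent stem cells show no circadian rhythm, and rhythms appear as cells differentiate. The time of day or clock phase at which the cells were collected is not given in the sources used here.

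The 16 peaks were searched on both strands of the mm9 genome for the E-box, the D-box (TTANGTAA), the ROR element (TAGGTCA) and the cAMP element (TGACGTCA), and no match in them shared a base with another. The stretches shown first are those with the densest E-boxes among the clock genes. Each is printed 5′ to 3′ on the strand of the gene, with E-boxes (CACGTG, or the variant CACGTT, which reads AACGTG on the other strand) in capitals, and the coordinates span the printed bases. The Nr1d1 start-site stretch, at chr11:98636984-98637026 on the minus strand, has 7 bp between an E-box and a variant. The Nr1d1 intron stretch lies at chr11:98635161-98635205 on the minus strand, the Hlf upstream stretch at chr11:90279494-90279535 on the minus strand, and the Cry1 stretch at chr10:84647842-84647890 on the minus strand.
Nr1d1 start-site peak: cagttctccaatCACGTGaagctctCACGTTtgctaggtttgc
Nr1d1 intron peak: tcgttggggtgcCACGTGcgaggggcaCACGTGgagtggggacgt
Hlf upstream peak: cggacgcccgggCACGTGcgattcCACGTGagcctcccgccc
Cry1 start-site peak: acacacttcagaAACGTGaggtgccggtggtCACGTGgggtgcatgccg

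The Dbp and Per1 E-boxes are shown because these genes had their peak midpoint away from the assigned start site. The capitals mark CACGTG at chr7:52963082-52963087 and chr7:52963195-52963200 for Dbp, and at chr11:68908385-68908390 and chr11:68908569-68908574 for Per1, all on the plus strand.
Dbp first E-box: acattccctcgcCACGTGagtccgccttcc
Dbp second E-box: agctgtaggccaCACGTGatgcggccctga
Per1 first E-box: tgagccagcctgCACGTGttccctacagct
Per1 second E-box: cgcccccgccctCACGTGgctctatcacta

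Per2 and Per3, whose peaks held no CACGTG, are shown with the variant of Per2 and with D-boxes of both genes. Capitals mark the variant CACGTT of Per2 at chr1:93355891-93355896, the D-boxes (TTANGTAA) of Per2 at chr1:93356019-93356026 and chr1:93355672-93355679, and a D-box pair of Per3 in the stretch chr4:150418913-150418991, all on the minus strand.
Per2 variant: agcgcgcgcggtCACGTTttccactatgtg
Per2 upstream D-box: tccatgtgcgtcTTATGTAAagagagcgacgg
Per2 intron D-box: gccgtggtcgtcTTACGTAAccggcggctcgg
Per3 D-box pair: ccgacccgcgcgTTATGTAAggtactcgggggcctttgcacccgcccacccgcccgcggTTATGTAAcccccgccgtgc

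All 10 clock genes had at least 1 peak, against 62.5% of protein-coding genes in the reference table. At least 2 peaks were assigned to 5 of the 10 (Tef, Hlf, Per2, Per3 and Nr1d1), against 24.4% of coding genes. A peak midpoint within 1 kb of the assigned transcription start site (TSS) was found for 8 of the 10, against 50.1%. The exceptions were Dbp and Per1, whose only peaks had midpoints at 1392 and -3669 bp from that start site (negative values lie upstream). Both peaks still covered a start site, and by position all 10 genes had a peak over an annotated TSS of their own, against 55.7% of coding genes in GENCODE. Every clock gene thus had a start site under a listed peak, kept because calls of both replicates overlapped by at least 1 bp. Whether the call of each replicate covered the start site cannot be told from the list. These are bulk cells, so a site open in some of the cells and a site weakly open in all of them cannot be told apart.

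**Figure D1:**
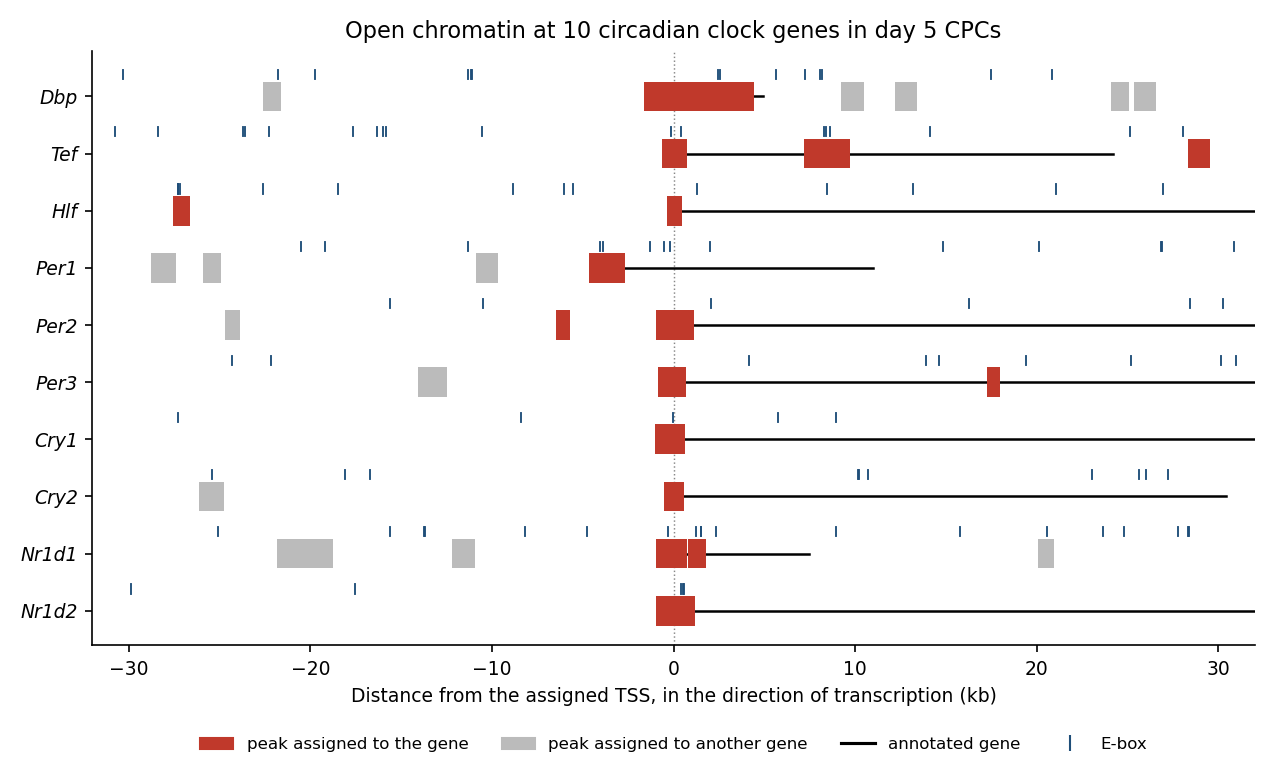
Peaks (boxes), annotated gene (line) and E-boxes CACGTG (ticks) around the 10 clock genes, plotted as distance in kb from the TSS assigned to the peak with the nearest midpoint, in the direction of transcription. Red peaks carry the gene's symbol and grey peaks another; the Dbp peak covers most of its gene, and the Hlf upstream peak sits under E-boxes 27 kb from the start site.

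Dbp (NM_016974), the PAR bZIP factor that is a classical direct output of the clock, had the widest peak of the group. It ran over chr7:52958974-52965045 in mm9, a width of 6072 bp. Only 7 of the 26232 peaks were wider, with the next in order at 6239 bp above it and 5952 bp below it. The interval ran from -1643 to 4428 bp around the assigned TSS, which put 90.5% of the gene inside it. It covered 4 of 4 annotated start sites (those of retained-intron transcripts included), 3 of 4 exons in full and 773 of 975 coding bases. It stopped 480 bp before the 3′ end of the gene. The midpoint therefore fell in a coding exon although the promoter was also open. Its 2 E-boxes lay 107 bp apart in intron 2, at 2465 and 2578 bp downstream of the assigned TSS, with a variant between them. A pair of ROR elements (TAGGTCA) lay at -348 and 610 bp from the TSS, and no D-box match was found in the interval.

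Tef (NM_017376), which encodes a second PAR bZIP factor, had 3 peaks, the most of any clock gene here. A peak of 2491 bp at chr15:81640311-81642801 and one of 1379 bp at chr15:81632463-81633841 each lay over a start site, with midpoints at -289 and 48 bp from the TSS assigned to each. These alternative promoters were 8404 bp apart by their peak midpoints. A peak of 1208 bp at chr15:81661435-81662642 lay 4144 bp past the 3′ end of the gene. The downstream promoter peak held 3 E-boxes and the upstream promoter peak 2, so both promoters of Tef carried the motif. The upstream promoter peak also held a D-box, at chr15:81633714-81633721, and the peak past the gene held a ROR element but no E-box.

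Hlf (NM_172563), the remaining PAR bZIP gene, had the narrowest start-site peak of the group. That peak measured 822 bp at chr11:90251777-90252598, its midpoint 44 bp downstream of the TSS, and only 6.55% of all peaks within 1 kb of a TSS were narrower. It held no E-box, and it held the only cAMP element (TGACGTCA) of the 16 peaks, at -9 bp from the TSS. The second peak, 983 bp at chr11:90278832-90279814, was intergenic, with its midpoint at -27091 bp. All 3 E-boxes of Hlf lay in this distal peak, together with 2 variants and a ROR element.

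Per1 (NM_011065), a repressor subunit that is also induced by acute signals, had a single peak of 1979 bp at chr11:68907801-68909779. It lay over the 5′-most of the 6 annotated start sites and over none of the others, the next of which was 2671 bp past the end of the peak. Its width exceeded that of 86.0% of peaks with the midpoint within 1 kb of a TSS, and of 96.0% of those with the midpoint further away, the class its own midpoint falls in. The peak held 2 E-boxes, at -334 and -150 bp from the start site it covered, and a D-box at chr11:68907994-68908001. A further 3 E-boxes, at -1282, -536 and -173 bp from the assigned RefSeq TSS, lay outside any Per1 peak.

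Per2 (NM_011066), the second PER repressor, had a promoter peak of 2075 bp at chr1:93354778-93356852, wider than 88.6% of peaks within 1 kb of a TSS. A smaller peak of 789 bp at chr1:93361594-93362382 had its midpoint at -6082 bp. No CACGTG lay in either. The promoter peak held the variant CACGTT 9 bp downstream of the TSS, and a pair of D-boxes at -121 and 226 bp from it. The smaller peak was the poorest in CpG of all 16, with an observed over expected CpG ratio of 0.02.

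Per3 (NM_011067), the third PER gene, had a promoter peak of 1549 bp at chr4:150418075-150419623 and an intronic peak of 742 bp at chr4:150400802-150401543, with midpoints at -74 and 17602 bp from the TSS. It was the one clock gene with neither CACGTG nor CACGTT in a peak. Its promoter peak held 3 D-boxes, at -158, -205 and -670 bp from the TSS, the most of any clock gene here. The intronic peak held none of the 5 motifs.

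Cry1 (NM_007771) and Cry2 (NM_009963) encode the CRY repressors, and each had a single peak at the promoter. The Cry1 peak was 1614 bp wide at chr10:84647185-84648798 and the Cry2 peak 1142 bp wide at chr2:92273635-92274776, the latter wider than only 31.6% of peaks within 1 kb of a TSS. These peaks had the highest GC contents of the 16, 63.4% for Cry1 and 61.8% for Cry2. Cry1 held an E-box at -60 bp from its TSS, with a variant upstream of it across a gap of 13 bp. Cry2 held a variant only, and neither Cry peak held a D-box.

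Nr1d1 (NM_145434), which encodes REV-ERB alpha, had a pair of peaks that nearly touched. The peak over the start site measured 1743 bp at chr11:98635926-98637668, and the peak in intron 1 measured 1031 bp at chr11:98634889-98635919, with its midpoint 1288 bp downstream. Only 6 bp separated them, and they spanned 2780 bp together. Of the 26211 gaps between neighbouring peaks in the list, 7 were as short as this. Each peak of Nr1d1 carried E-boxes: 1 lay in the start-site peak, 7 bp from a variant, and 3 lay in the intronic peak, which also held a D-box near its midpoint.

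Nr1d2 (NM_011584), which encodes REV-ERB beta, had a single promoter peak of 2165 bp at chr14:19070439-19072603, wider than 90.8% of peaks within 1 kb of a TSS. The peak held 3 E-boxes, at 428, 531 and 576 bp downstream of the TSS, and D-boxes at 496 and 994 bp downstream. Its 5 motif matches all lay in an intron on the downstream side of the start site.

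**Figure D2:**
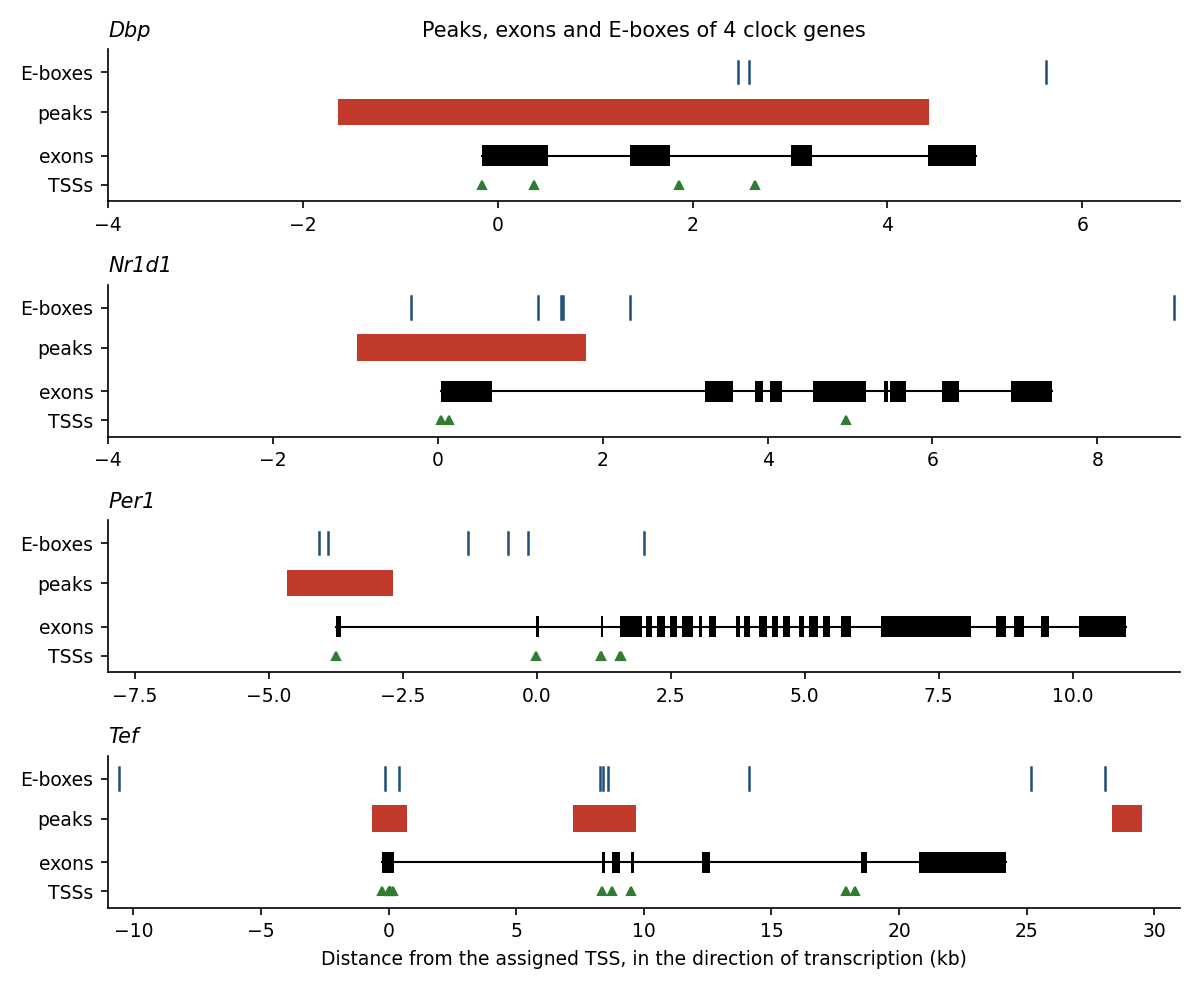
E-boxes CACGTG, peaks, exons of the annotated coding transcripts and annotated TSSs at Dbp, Nr1d1, Per1 and Tef, plotted as distance in kb from the TSS assigned to the peak with the nearest midpoint. The 2 Nr1d1 peaks appear as one bar because 6 bp separate them, and the Per1 peak lies over the first TSS, upstream of the assigned one.

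The peaks of the clock genes were compared with all peaks by width, which is the one size measure in the list. With the midpoint within 1 kb of a TSS, the 9 clock peaks had a median width of 1614 bp (range 822 to 2491), and all 11772 such peaks had a median of 1326 bp with quartiles of 1072 and 1691. With the midpoint further than 1 kb away, the 7 clock peaks had a median of 1031 bp (742 to 6072), and all 14460 such peaks had a median of 911 bp (quartiles 735 and 1146). These 7 include the Dbp and Per1 peaks, which cover annotated start sites, and the 5 clock peaks over no start site of their gene had a median of 983 bp (742 to 1208). Most clock promoters were thus on the wide side of the distribution, with Hlf and Cry2 below its median. Summed over each gene, peak width had a median of 2228 bp in the clock genes and 1600 bp in all genes with a peak. Dbp had 6072 bp and Tef 5078 bp, more than 97.5% and 95.6% of genes with a peak, and Cry2 came last with 1142 bp, more than 26.5%. Base composition differed little near start sites, where GC content had a median of 59.0% in the clock peaks and 58.6% in all peaks. The CpG ratio of peaks with the midpoint further than 1 kb away had a median of 0.24 over all peaks. For the 5 clock peaks over no start site the median was 0.41 (0.02 to 0.65), and the Dbp peak itself was at 0.46.

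**Figure D3:**
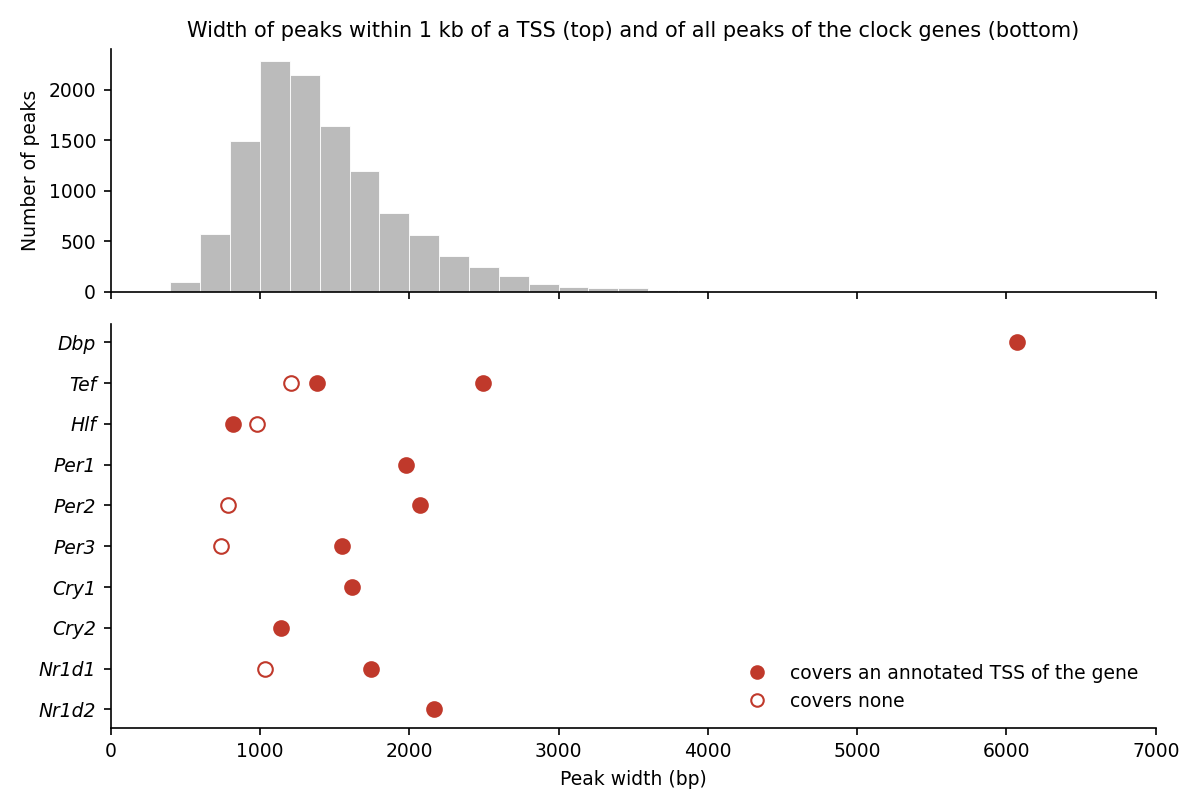
The histogram gives the number of all peaks within 1 kb of a TSS by width in bp, and the points give the width of each of the 16 clock gene peaks on the same linear axis, filled where the peak covers an annotated TSS of its gene and open where it covers none. Dbp, at 6072 bp, lies far to the right of the others, and the filled Hlf point, at 822 bp, is the leftmost filled one.

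The letters of the motifs played no part in choosing the peaks by symbol, although many of these genes are known for them. The members and motifs were chosen with earlier results of these data known, so the motif counts are a description. An E-box CACGTG was found in a peak of 7 of the 10 clock genes, against 31.9% of all genes with a peak. The genes without one were Per2, Per3 and Cry2. At least 2 E-boxes were found for 6 of the 10 (Dbp, Tef, Hlf, Per1, Nr1d1 and Nr1d2), against 8.41%. Tef had 5, Nr1d1 had 4, and Hlf and Nr1d2 had 3 each. Only 6 genes of the list had more E-boxes in their peaks than Tef, and 30 had more than Nr1d1. When CACGTT was also counted, 9 of the 10 clock genes held a match, against 49.9% of genes with a peak.

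Because wider peaks hold more letters, the motifs were also counted per kb and in windows of equal length. The 20 E-boxes of the clock peaks came to 0.720 per kb. All peaks with the midpoint within 1 kb of a TSS had 0.241 per kb. All peaks together had 0.211 per kb, against which the ratio was 3.41. Leaving out 1 clock gene at a time gave ratios from 3.03 (without Nr1d1) to 3.93 (without Dbp). In the central 500 bp of each peak, CACGTG was present in 7 of 16 clock peaks (43.8%, 95% Wilson interval 23.1 to 66.8), against 9.95% of all peaks. The interval covers counting error only, and peaks of 1 gene are not independent of each other. These 7 peaks belonged to 5 clock genes. The share was 12.1% of all peaks with the midpoint within 1 kb of a TSS and 8.18% of those further away. Of the 20 E-boxes, 11 lay in introns, 7 outside transcripts and 2 in 5′ UTRs, and 14 lay within 1 kb of an annotated start site. Start sites of retained-intron transcripts are included, and the Dbp E-boxes are among the 14 only through these. By role, 10 lay at the 3 PAR bZIP genes, 7 at the 2 REV-ERB genes, and 3 at the 5 PER and CRY genes.

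D-boxes were distributed differently among the members. A D-box was found in a peak of 6 of the 10 clock genes (Tef, Per1, Per2, Per3, Nr1d1 and Nr1d2), against 9.98% of genes with a peak. The PER genes held 6 of the 10 D-boxes, the REV-ERB genes 3 and Tef 1, while the peaks of Dbp, Hlf, Cry1 and Cry2 held none. Per2 and Per3, which lacked CACGTG, held 2 and 3 D-boxes, while Cry2, which also lacked it, held none. The density was 0.360 per kb against 0.054 in all peaks, a ratio of 6.69, which ranged from 5.11 (without Per3) to 8.56 (without Dbp). In the central 500 bp, 3 of 16 clock peaks held a D-box (18.8%, interval 6.59 to 43.0), against 1.96% of all peaks. Tef, Per1, Nr1d1 and Nr1d2 held both an E-box and a D-box, against 3.96% of genes with a peak.

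The other motifs showed smaller differences in density. CACGTT came to 0.360 per kb in the clock peaks and 0.186 in all peaks, and it was in the central 500 bp of 31.2% and 7.53% of them. By gene, CACGTT was in a peak of 7 of the 10 clock genes, against 29.6% of genes with a peak. CACGTG was also in a peak of 7 of the 10, against 31.9%, so the difference by gene was similar for both. The ROR element came to 0.144 and 0.075 per kb, with 4 matches, all at the PAR bZIP genes Dbp, Tef and Hlf. It was thus in a peak of 3 of the 10 clock genes, against 13.4% of genes with a peak. The ROR element was in the central 500 bp of 12.5% of clock peaks and 3.30% of all peaks. The cAMP element had the single match at Hlf (6.25% of clock peaks and 2.03% of all peaks in the central 500 bp), too few for a comparison. A match says that these letters are present in open chromatin, and whether any factor was bound there was not measured.

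**Figure D4:**
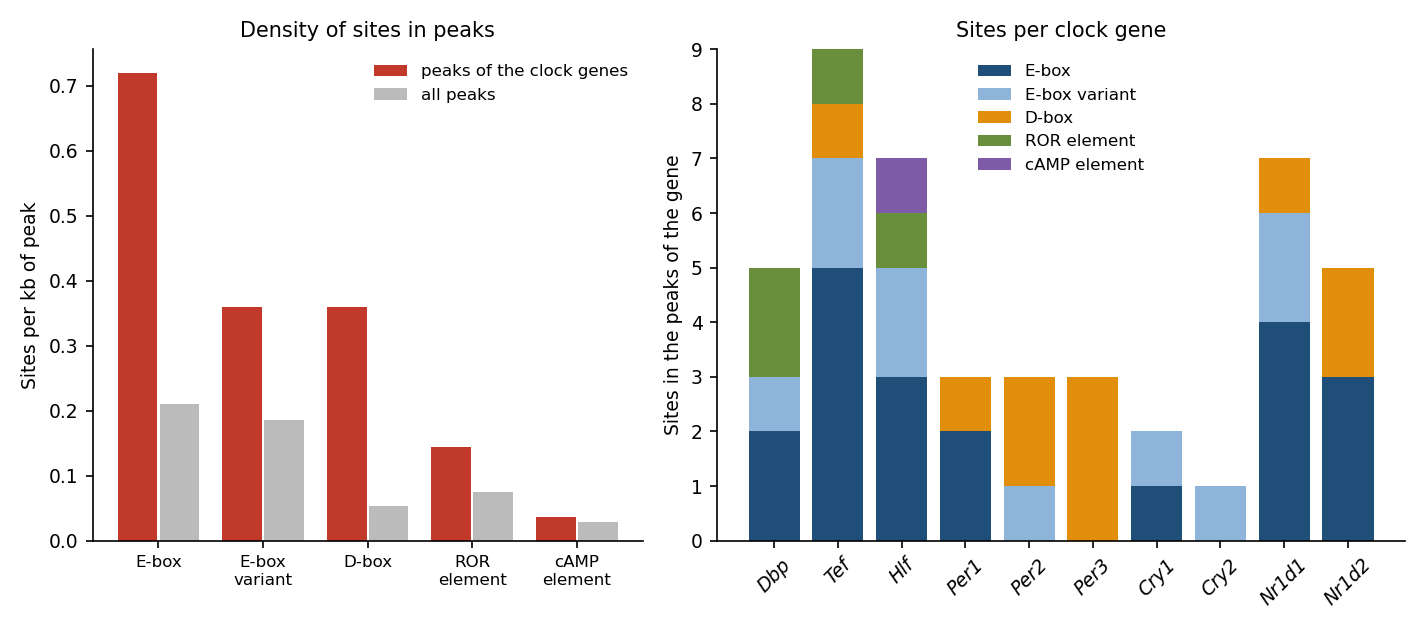
Left, matches per kb of peak for each motif in the clock gene peaks (red) and in all peaks (grey); right, matches to each motif in the peaks of each clock gene, stacked and counted on both strands. E-boxes reached 0.720 per kb in the clock peaks and 0.211 in all peaks, and they were most numerous at Tef, with 5, and Nr1d1, with 4.

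E-boxes placed very close together were examined because tandem E-boxes are known at clock genes. E-boxes or variants 6 or 7 bp apart were found in 22 of the 26232 peaks (0.0839%), and 2 of these were clock gene peaks: the start-site peak of Nr1d1 and the upstream peak of Hlf. In the Hlf peak both sites were CACGTG with 6 bp between them, as printed above. A peak assigned to Hes6, the gene next to Per2, was also among the 22. The spacing was chosen after these sequences had been seen, so these counts are a description. So is the comparison with other 6-letter palindromes with the same number of G and C and a central CG: over the 7 of them, the ratio of clock peaks to all peaks ranged from 0.00 to 1.62, against 3.41 for CACGTG.

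Most E-boxes of the clock genes lay outside open chromatin. In the loci of the 10 genes, taken as the gene with 10 kb on either side, 88 E-boxes were found. Of these, 18 (20.5%, Wilson interval 13.3 to 30.0) lay in a peak of any symbol, while peaks covered 7.45% of the bases of these loci. The interval covers counting error only, and E-boxes of 1 locus are not independent of each other. The share depended on the size of the locus, at 26.2% with 2 kb and 13.0% with 50 kb on either side. Loci of neighbouring coding genes overlap, so over all coding genes an E-box or a base can count more than once. Counted in this way, 4.94% of the E-boxes lay in peaks, which covered 2.66% of the bases. The share of E-boxes in peaks was thus 2.7 times the share of bases for the clock genes and 1.9 times for all coding genes. The latter include genes with no peak in the locus. Over coding genes with a peak there, as each clock gene had, the shares were 5.67% of E-boxes and 3.20% of bases, counted in the same way. The E-box share exceeded the base share in 6 of the 10 members, and the same count was not made over all coding genes. At Per1, Per2 and Cry1 the excess rested on 1 or 2 E-boxes in peaks, and the Wilson interval included the base share. Dbp was not among the 6 members, with 2 of 6 E-boxes (33.3%) in peaks that covered 34.1% of its bases. Among the others, Tef had 5 of 8 E-boxes in a peak, Nr1d2 had 3 of 5, and Nr1d1 had 4 of 9. Per1 had 2 of 9 in a peak. Per3 had none of 16, Cry2 none of 8 and Hlf none of 13, since the Hlf peak with E-boxes lies beyond 10 kb. At Per2 the 1 open E-box of 6 lay in a peak assigned to Hes6. Counted by position, 23 peaks lay in these loci, and those with another symbol carried Sphk2 and Rpl18 at Dbp, Tob2 at Tef, Vamp2 at Per1, Hes6 at Per2, Mterf2 at Cry1 and Mapk8ip1 at Cry2.

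Other genes of the clock also had peaks. Of 20 such genes, 19 had at least 1 peak, against the 62.5% of coding genes given above, and Ciart had none. The activators had 1 peak for Clock, 1 for Arntl, 2 for Npas2 and 1 for Arntl2. Among the ROR receptors, Rora had 6 and Rorb had 1, and the D-box repressor Nfil3 had 2. The E-box repressors had 1 for Bhlhe40 and 3 for Bhlhe41. Among the kinases and ubiquitin ligase subunits that act on PER and CRY there were 1 for Csnk1d, 3 for Csnk1e, 2 for Fbxl21, 1 for Btrc and 3 for Fbxw11, and the PER or CRY partners had 1 for Timeless, 1 for Nono and 3 for Wdr5. An E-box was found in a peak of 5 of these 20 genes, a share not above the 31.9% of all genes with a peak, and Bhlhe41 held 7 matches.

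The labelled cell type was checked against marker genes. Of 10 cardiac progenitor markers, 9 had a peak, 8 of them within 1 kb of a TSS, against 62.5% and 50.1% of coding genes, and Hand2 had none. Of 4 pluripotency markers 3 had a peak, 2 of them within 1 kb, and Pou5f1 had none. Of 5 endothelial and blood markers 3 had a peak and 0 had one within 1 kb. All 3 neural markers had a peak, 2 of them within 1 kb, and both fibroblast markers had one within 1 kb. Peaks at markers of other cell types were thus present as well, and with so few genes per list these counts do not settle the make-up of the cells. The part of other cell types in the clock gene peaks was not tested.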

How the data were processed

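ATAC-seq libraries of 2 replicates were read from 1 deposited peak list with 6 columns, in which the authors give peak coordinates and the distance to a TSS in bp; the list has no score, p-value or count, so depth per sample is unknown. Per the study's methods and the submitters' processing notes, reads were mapped to mm9 with Bowtie2, duplicates were removed with Picard 1.136, peaks were called per replicate with MACS, and bedtools 2.15 selected those with an overlap of at least 1 bp between replicates. Whether the listed boundaries are those of 1 replicate is not stated, so widths and gaps may be those of 1 replicate. No shift for the Tn5 cut site is described apart from the fixed shift at peak calling.

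Repeated lines were merged to 26232 intervals. Motifs were counted on both strands of the NCBIM37 (mm9) genome with pysam 0.24.0. Annotated start sites came from GENCODE vM1. The RefSeq table gave gene names and the protein-coding genes over which the shares of 62.5%, 24.4% and 50.1% were taken. Of the assigned start sites, 10 of 16 equalled an annotated one within 1 bp, and the largest difference was 159 bp. All 10 members were named with every peak, and the values of some other clock genes are not reported here. The members, lists and motifs were chosen with earlier results of these data known. The motif pair spacing and the palindrome comparison were added after values were seen. Motif counting was tested on simulated data.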

Additional observations from a re-analysis of the deposited data

How the results depend on the processing

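The choices varied were a minimum peak width, counting repeated lines, assignment of peaks by position, the TSS distance, the motif and the size of the locus. Of 28 combinations of a result and an alternative, 27 gave values within the limits set. Some of these could not have differed: the narrowest clock gene peak was 742 bp, so a minimum of 500 bp removed none of the 16. The exception was the share of E-boxes of the clock gene loci that lay in peaks, 20.5% with 10 kb on either side of the gene. It was 13.0% with 50 kb, while the 26.2% with 2 kb counted as within the limits. Values counted as within the limits also varied. The 16 peaks of the clock genes became 11 when only peaks wider than the median of all peaks were kept, and 23 by position. The 7 clock genes with an E-box in a peak became 5 in the central 500 bp, and 9 when CACGTT was also counted. By position the count stayed at 7 but the genes changed. Hlf dropped out, as its peak with E-boxes lies beyond 10 kb, and Per2 entered through a peak assigned to Hes6. No replicate could be left out, since no column of the list is labelled with a single replicate. No paired analysis was possible because the series has 1 group and the list is shared. A region called in only 1 replicate is missing from the list, so a gene without a peak may still have accessible sites, and width depends on depth and on the peak caller.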
